A study of Mus musculus with 3 samples.

Results

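The genes described here encode the machinery that docks secretory granules at the plasma membrane and fuses them with it: the SNARE proteins, the synaptotagmins and the proteins that act on both. They were taken by a rule on gene symbols, set with earlier results of these data known. The families were Syt, Sytl, Stx, Stxbp, Snap, Vamp, Rab3, Rab27, Rims, Unc13 and Cplx, which gave 75 of the 32701 symbols in the 2 deposited tables. Of the 75, 68 were listed in both tables and 7 in one of them only, and 53 reached 10 CPM (UMIs scaled to a common library total) in at least 1 of the beta-like, alpha-like and delta-like classes of both tables. The symbol rule also takes in Snap91, a clathrin adaptor that shares only its name with the SNAP proteins, and Vamp9.

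The study measured single-cell RNA in islets of Langerhans, the hormone-secreting cell clusters of the pancreas, from 6 mice that carried Ngn3-CreERT and R26-CAG-TdTomato and were examined 10 days after tamoxifen. In such mice a tamoxifen-dependent Cre recombinase, expressed from Ngn3 (Neurog3), switches on the red protein TdTomato in cells where the driver is active. The 3 samples form 1 group, and replicates 2 and 3 each pool 2 mice, and about 10000 dissociated cells were loaded per channel. Every sample carried both transgenes and received tamoxifen, and no untreated or Cre-negative sample is among them, so the comparisons below are between cell classes within the same islets. Replicate 1 is library 1. Replicates 2 and 3 share the joint table, no label ties its cells to either, and it therefore counts as 1 library.

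Regulated secretion rests on a small set of interacting families. A vesicle SNARE (a VAMP) pairs with target SNAREs in the plasma membrane (a syntaxin and a SNAP-25 family protein), and the winding of the helical bundle they form drives fusion. Munc18 proteins (the Stxbp genes) hold and guide the syntaxin, Munc13 proteins (Unc13) open it, RIM scaffolds tie the vesicle to calcium channels, Rab3 and Rab27 GTPases with their synaptotagmin-like effectors (Sytl, also called Slp) bring the vesicle to the membrane, complexins clamp and assist the SNAREs, and synaptotagmins sense calcium. Islet endocrine cells use this machinery to release insulin, glucagon and somatostatin from dense-core granules.

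After filtering, library 1 held 436 beta-like, 89 alpha-like and 74 delta-like cells and the joint one held 6328, 1083 and 542 of them. Both also held non-endocrine cells, 113 and 1604 (endothelial-like, macrophage or myeloid-like, fibroblast-like, pericyte-like and others), and the joint table held 1 cluster of 352 cells led by Ppy, Gast and Pyy, called the Ppy-high cluster because only 2 markers of pancreatic polypeptide cells were read. The names were rebuilt here from marker genes, and clustering did not use the genes described. The delta-like clusters also carried Ppy, with medians of 242 and 161.5 UMIs per cell (library 1, then joint table), where their medians of Sst were 1226.5 and 750.5. Median depth per cell was 38701 and 20574.5 UMIs in beta-like cells, 11916 and 8186 in alpha-like, 10379 and 5588.5 in delta-like and 8587 and 2896.5 in non-endocrine cells. Insulin UMIs per non-hormone UMI, set to 100% in beta-like cells, were 0.599% and 4.99% in alpha-like, 1.66% and 8.17% in delta-like and 0.335% and 6.68% in non-endocrine cells, and 31.0% in the Ppy-high cluster. Any pair among library 1 and the 3 barcode blocks of the joint table shared from 0 to 6 cell barcodes.

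Levels are in CPM, UMIs scaled to a common total of UMIs outside 8 hormone genes, given for library 1 and then the joint table, and 3-prime UMI counts carry no term for gene length, so that levels of different genes are set side by side on the assumption that they were captured alike. Differences are on the scale of log2(level + 5) relative to the median gene, with n = 2 libraries, and an adjusted p is from limma over all genes tested. With classes paired within a library, the test sets a difference against a variance pooled over the classes fitted. That variance comes from the spread between these 2 libraries and is drawn towards a trend over all genes. The SE of a gene is therefore the same in all 3 endocrine contrasts and is not the spread of any single difference. Nothing in the labels says whether the spread between libraries is biological or technical, and cells and barcode blocks were not used as replicates.

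Snap25, Vamp2 and Vamp8 were abundant in every endocrine class, and of these only Vamp8 was called in no contrast between them. Snap23, Stx1a and Stx3 were also called in a contrast, and Stx4a in none. With n = 2 libraries a missing call does not show equal levels. Beta-like cells were marked by Sytl4, Rims3 and Rab3d, alpha-like cells by Rab3c, Sytl2 and Syt16, and delta-like cells by Syt1, Stxbp5l and Rab3b. Alpha-like and beta-like cells differed in 28 of 53 genes tested (13 higher and 15 lower in alpha-like cells), where 31.1% of all 9808 genes tested were called, 14.5% higher and 16.6% lower. Delta-like and beta-like cells differed in 27 of 53 (9 higher and 18 lower), against 32.2% of all genes, 16.4% higher and 15.8% lower. Delta-like and alpha-like cells differed in 17 of 53 (6 higher and 11 lower), against 19.4% of all genes, 10.9% higher and 8.41% lower. The median absolute difference was 0.53, 0.50 and 0.38 in these genes and 0.33, 0.33 and 0.27 over all genes.

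By direction, 13 genes were higher in beta-like than in both other classes (10.2% of all genes had that pattern), 7 were higher in alpha-like cells (4.26%) and 5 in delta-like cells (5.39%). Among the 13 were Rab27a, Rab3a, Rab3d, Rims3, Snap23, Stx7, Syt13, Syt4, Sytl1, Sytl4, Vamp2 and Vamp4, the 7 were Rab27b, Rab3c, Stx16, Syt11, Syt16, Sytl2 and Sytl5, and the 5 were Rab3b, Stxbp5l, Stxbp6, Syt1 and Syt5. A gene was tested where it reached 10 CPM in at least 2 columns (a class in a library), and Rab27b and Sytl2 did so only in the alpha-like ones. Their tests are thus not independent of their being high there. Ppy-high cells took no part in these contrasts, and they also held several of the 7. Cplx2 and Syt9 were lower in beta-like than in both other classes, 17 genes were called in no contrast and 9 had other patterns (Rims2, Snap25, Snap91, Stx1a, Stx3, Stx5a, Stxbp5, Syt14 and Syt7). The directions hold relative to the median gene and outside hormone RNA, which made up most UMIs of beta-like cells. Per all UMIs and without centring, the median gene itself lay 0.71 higher in alpha-like and 0.93 higher in delta-like than in beta-like cells. On that scale 7 called genes changed sign against beta in alpha-like cells (Rab27a, Rab3a, Rab3b, Syt13, Syt14, Vamp2 and Vamp4). Of them only Vamp2 and Vamp4 were called in the new direction (limma adjusted p = 0.00387 and 0.0435). In delta-like cells 15 changed sign. Among them Rab27a, Rab3a, Snap25, Stx3, Stx7, Syt7, Vamp2 and Vamp4 were called in the new direction. Snap23, Snap91, Stxbp5, Syt13, Syt4 and Sytl1 were not called there. Rab3d kept its sign but not its call. No called gene changed sign between delta-like and alpha-like cells.

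**Figure D1:**
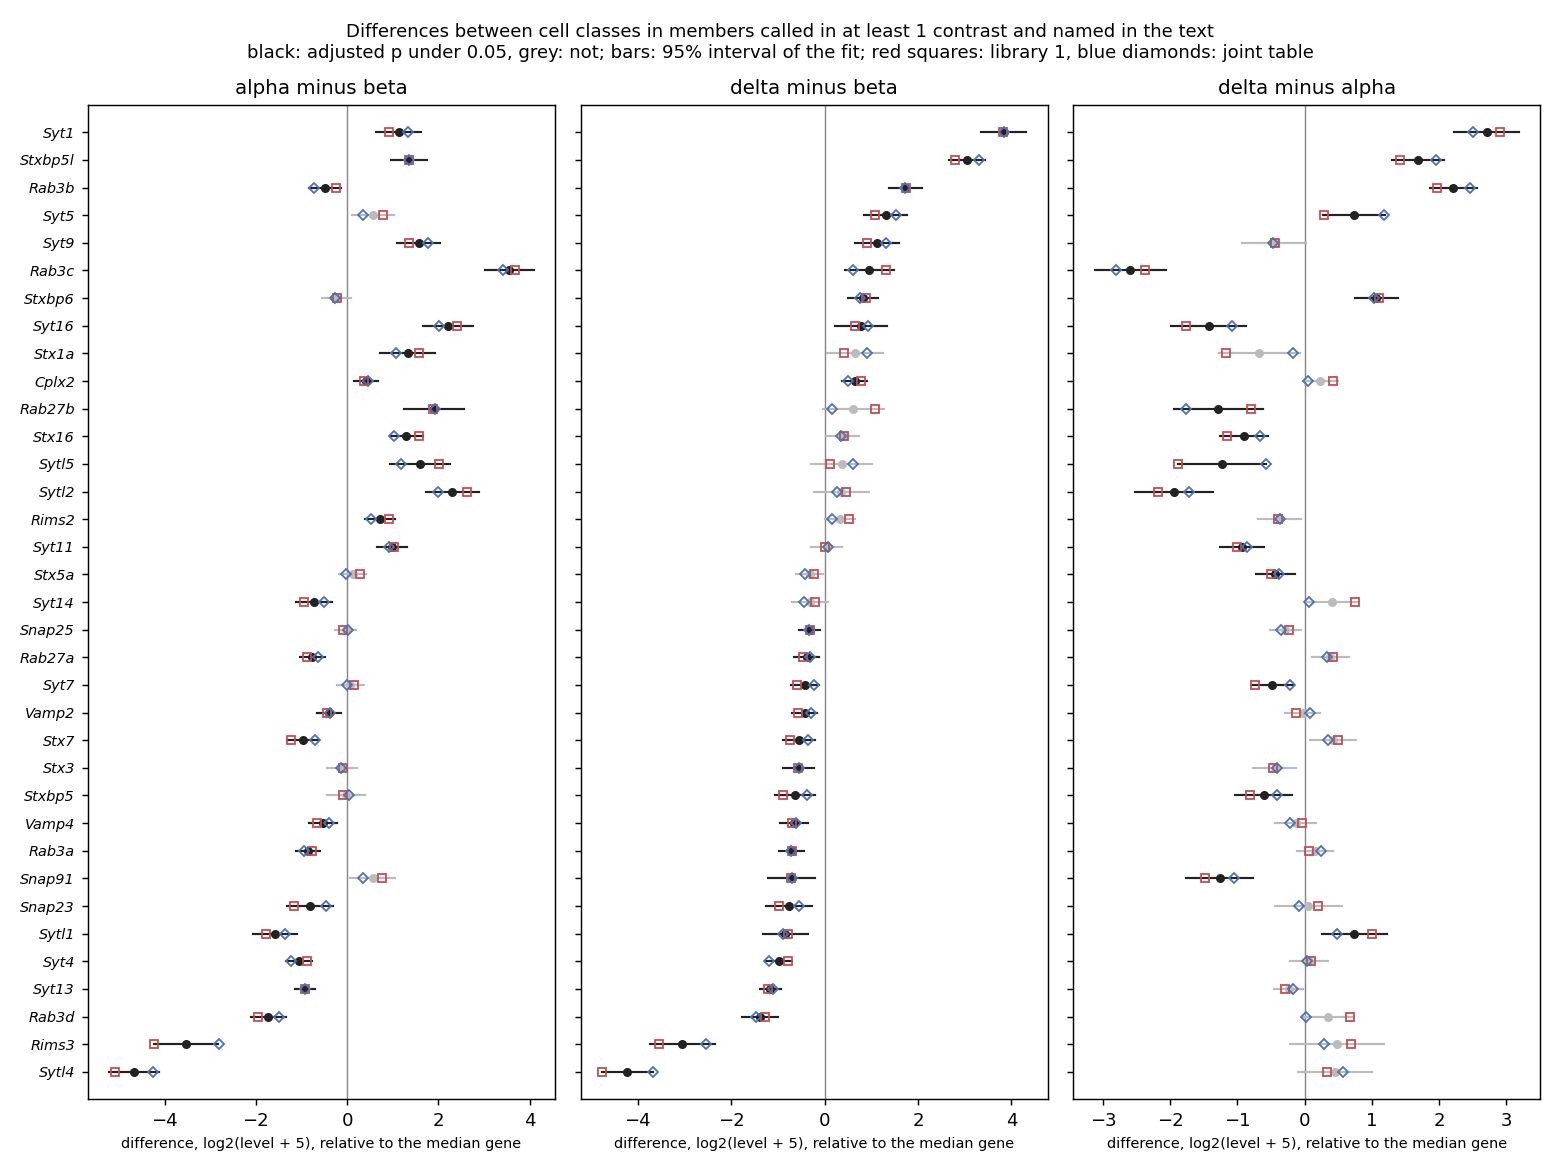
Differences between endocrine classes on the scale of log2(level + 5) relative to the median gene, for the genes named in the text that were called in at least 1 of the 3 contrasts; black dots and bars are the limma estimate and its 95% interval (grey where adjusted p was not under 0.05), red squares library 1 and blue diamonds the joint table. Sytl4 and Rims3 lie farthest below 0 against beta, and Syt1 and Stxbp5l farthest above 0 in delta against beta; per all UMIs, 7 called genes change sign in alpha against beta and 15 in delta against beta.

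Among the target SNAREs, Snap25 (synaptosome-associated protein 25, the neuronal and endocrine SNAP; ENSMUSG00000027273.13, chromosome 2, 136713453 to 136782428 of GRCm38) was abundant in every endocrine class. Its level was 245 and 216 CPM in beta-like, 217 and 208 in alpha-like and 192 and 178 in delta-like cells, and 229.7 in the Ppy-high cluster. Alpha-like and beta-like cells did not differ beyond the error (-0.03, 95% interval -0.26 to 0.20), while delta-like cells were lower than beta-like cells with a difference of -0.32 (SE 0.10, limma adjusted p = 0.0393), a sign that turned to 0.80 per all UMIs. Snap25 made up 86.3% and 88.2% of the UMIs of Snap23 and Snap25 in beta-like, 94.2% and 91.8% in alpha-like and 91.9% and 90.3% in delta-like cells. Snap23, the widely expressed relative, was lower than in beta-like cells with a difference of -0.81 (SE 0.22, limma adjusted p = 0.0197) in alpha-like and -0.76 (SE 0.22, limma adjusted p = 0.0263) in delta-like cells, the second of which turned to 0.18 per all UMIs. Snap29 and Snap47 were called in no endocrine contrast.

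The syntaxin of neuronal exocytosis was the scarcest of the plasma membrane syntaxins that reached the limit. Stx1a was at 5.34 and 5.56 CPM in beta-like, 24.1 and 16.2 in alpha-like and 8.48 and 15.5 in delta-like cells, and alpha-like cells were above beta-like cells by 1.33 (SE 0.27, limma adjusted p = 0.00399), a value that was 1.78 with 1 CPM added and 0.71 with 20. Stx3 and Stx4a, which serve granule and surface fusion in many cell types, were the larger part: 52.7% and 51.0% of the family's UMIs in beta-like cells were Stx3 and 39.1% and 37.9% were Stx4a, against 4.39% and 5.24% for Stx1a. Stx4a was called in no endocrine contrast. Of the 8 syntaxins of endosomes, Golgi and endoplasmic reticulum, Stx16, a syntaxin of the trans-Golgi network, was higher in alpha-like cells (151 and 94.2) than in beta-like cells (51.1 and 46.5), by 1.29 (SE 0.16, limma adjusted p = 0.000214). Stx7, a syntaxin of late endosomes, was at 125 and 120.1 in beta-like and 46.8 and 67.8 in alpha-like cells, a difference of -0.97 (SE 0.15, limma adjusted p = 0.000855).

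Vamp2 and Vamp8 were the most abundant vesicle SNAREs in every endocrine class. Vamp8, a VAMP of endosomes and of granules in secretory cells, was at 182 and 181 CPM in beta-like, 177 and 163 in alpha-like, 176 and 183 in delta-like cells and 188 in the Ppy-high cluster, and its differences between endocrine classes were not called (-0.01 in alpha against beta, 95% interval -0.25 to 0.22). Vamp2 (synaptobrevin 2, the main vesicle SNARE of regulated secretion) was at 195 and 184 in beta-like, 134 and 134 in alpha-like and 127 and 156 in delta-like cells. It was lower with a difference of -0.40 (SE 0.12, limma adjusted p = 0.0254) in alpha-like and with a difference of -0.43 (SE 0.12, limma adjusted p = 0.019) in delta-like than in beta-like cells, and both signs turned per all UMIs (0.48 and 0.69). Vamp8 took 28.3% and 29.9% and Vamp2 30.3% and 30.4% of the family's UMIs in beta-like cells. Vamp3 and Vamp7 were called in no endocrine contrast.

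Of the Munc18 and tomosyn group, Stxbp5l (tomosyn-2, a protein known to hold SNAREs in an inactive complex; ENSMUSG00000022829.14, chromosome 16, 37114942 to 37384962) was highest in delta-like cells. Stxbp5l was at 154 and 178 CPM in delta-like, 52.2 and 38.0 in alpha-like and 18.7 and 12.7 in beta-like cells. The 3 classes did not overlap: the barcode blocks ran from 157 to 193 in delta-like, 30.4 to 51.7 in alpha-like and 12.4 to 13.04 in beta-like cells. The differences were 3.05 (SE 0.17, limma adjusted p = 2.48e-06) between delta-like and beta-like and 1.69 (SE 0.17, limma adjusted p = 0.000112) between delta-like and alpha-like cells. It made up 33.6% and 34.1% of the group's UMIs in delta-like cells and 4.28% and 2.95% in beta-like cells.

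Stxbp6 (amisyn, a SNARE-motif protein that competes for the complex) was higher in delta-like cells (78.1 and 96.0) than in beta-like cells (40.9 and 52.4), by 0.82 (SE 0.14, limma adjusted p = 0.00173). The first tomosyn, Stxbp5, went the other way, at -0.64 in delta-like against beta-like cells (limma adjusted p = 0.0278; per all UMIs 0.32). Stxbp2, Stxbp3 and Stxbp4 were called in no endocrine contrast.

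Synaptotagmins gave the delta-like class its clearest member. Syt1, the fast calcium sensor of synaptic vesicles (ENSMUSG00000035864.14, chromosome 10, 108497650 to 109010982), was at 86.5 and 104 CPM in delta-like cells, 6.69 and 12.6 in alpha-like and 1.60 and 2.29 in beta-like cells, and 5.44 in the Ppy-high cluster. The barcode blocks of delta-like cells, which are parts of 1 library, ran from 97.4 to 125. The difference was 3.84 (SE 0.22, limma adjusted p = 2.35e-06) against beta-like cells and 2.71 (SE 0.22, limma adjusted p = 2.21e-05) against alpha-like cells, and the first was 5.02 with 1 CPM added and 2.38 with 20. Syt1 was 10.1% and 9.78% of synaptotagmin UMIs in delta-like cells and 0.12% and 0.158% in beta-like cells.

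Syt13, a synaptotagmin that lacks the usual calcium-binding residues (ENSMUSG00000027220.2, chromosome 2, 92915098 to 92956058), was the most abundant of the family in every endocrine class. Its level was 719 and 750.3 CPM in beta-like, 356 and 372 in alpha-like and 300.3 and 360.0 in delta-like cells, which was 54.0% and 51.6%, 38.7% and 39.1% and 35.2% and 33.8% of synaptotagmin UMIs. It was lower with a difference of -0.92 (SE 0.10, limma adjusted p = 8.22e-05) in alpha-like and with a difference of -1.16 (SE 0.10, limma adjusted p = 2.29e-05) in delta-like than in beta-like cells, and the differences were 0.01 and 0.01 per all UMIs. Syt4, an atypical synaptotagmin of dense-core granules, was at 245 and 292 in beta-like, 123 and 115 in alpha-like and 137 and 130.2 in delta-like cells, with differences of -1.05 (SE 0.13, limma adjusted p = 0.000184) and -0.98 (SE 0.13, limma adjusted p = 0.00031) against beta, the second of which turned to 0.16 per all UMIs.

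Syt7, the high-affinity calcium sensor linked to insulin and glucagon release, was not called between alpha-like and beta-like cells (205 and 210.1 against 196 and 223; difference 0.07, 95% interval -0.23 to 0.37). In delta-like cells, at 126 and 197, Syt7 was lower than in beta-like cells with a difference of -0.41 (SE 0.13, limma adjusted p = 0.0417), which turned to 0.71 per all UMIs, and lower than in alpha-like cells with a difference of -0.48 (SE 0.13, limma adjusted p = 0.033). Syt5 and Syt9, calcium sensors of dense-core granules, were both lowest in beta-like cells. Syt5 was at 57.7 and 93.8 in delta-like, 44.2 and 35.05 in alpha-like and 25.3 and 27.9 in beta-like cells, and rose in delta-like against beta-like cells by 1.31 (SE 0.21, limma adjusted p = 0.00107). Its difference between alpha-like and beta-like cells was not called (0.58, limma adjusted p = 0.0605). Between delta-like and alpha-like cells it was 0.73 (limma adjusted p = 0.0344), from 0.29 in library 1 to 1.17 in the joint table. Syt9 was at 28.1 and 32.4 in alpha-like, 20.4 and 24.6 in delta-like and 8.72 and 6.46 in beta-like cells, with differences of 1.57 (SE 0.21, limma adjusted p = 0.000365) and 1.12 (SE 0.21, limma adjusted p = 0.00304) against beta, the first of which was 1.97 with 1 CPM added and 0.92 with 20 and the second 1.45 with 1 CPM added and 0.61 with 20. Alpha-like cells were set apart from beta-like cells by Syt16, at 28.1 and 25.98 against 1.60 and 3.10. That difference was 2.21 (SE 0.25, limma adjusted p = 0.00011), and it was 3.19 with 1 CPM added and 1.13 with 20. Syt11 also set them apart, at 73.6 and 75.7 against 36.1 and 39.6 (difference 0.98, SE 0.15, limma adjusted p = 0.000691). Both genes were found in the Ppy-high cluster as well.

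The synaptotagmin-like proteins bind Rab27 on granules, and the isoform in use differed by class. Sytl4 (granuphilin, which docks insulin granules; ENSMUSG00000031255.14, chromosome X, 133936385 to 133981812) was at 323 and 316 CPM in beta-like, 4.01 and 11.0 in alpha-like and 6.79 and 20.9 in delta-like cells. The differences against beta were -4.67 (SE 0.24, limma adjusted p = 1.51e-06) in alpha-like and -4.22 (SE 0.24, limma adjusted p = 2.57e-06) in delta-like cells. Sytl4 was 85% and 86.4% of the family's UMIs in beta-like cells (95% binomial intervals 83.4% to 86.5% and 85.8% to 86.9%, which like all intervals on counts cover counting error only). A UMI of Sytl4 was found in 92.4% and 79.1% of beta-like cells, in 3.37% and 4.06% of alpha-like and in 3.54% and 4.92% of non-endocrine cells. With each cell thinned to 1500 non-hormone UMIs, from medians of 11997 and 6217 in beta-like and 8502 and 2507 in non-endocrine cells, the shares were 35.4% and 36.8% in beta-like, 1.18% and 1.03% in alpha-like and 0% and 3.15% in non-endocrine cells, where 0 of 110 cells has an exact upper 95% limit of 3.30%.

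Sytl5 and Sytl2, further Rab27 effectors, were the largest part of the family in alpha-like cells. Sytl5 was at 42.8 and 34.7 in alpha-like, 8.48 and 24.1 in delta-like and 7.65 and 13.4 in beta-like cells (difference against beta 1.60, SE 0.29, limma adjusted p = 0.00222). That value was 1.92 with 1 CPM added and 1.01 with 20. In alpha-like cells Sytl5 made up 32 of the family's 64 UMIs in the first table and 47.4% in the second. Its difference of -1.23 (SE 0.29, limma adjusted p = 0.0152) between delta-like and alpha-like cells was -1.46 with 1 CPM added and -0.79 with 20, and its call was lost with edgeR (edgeR quasi-likelihood adjusted p = 0.0573 with TMM) and with DESeq2 (DESeq2 adjusted p = 0.0673), and also with no filter, with no library block and without barcode block 1. Sytl2 was at 24.1 and 14.1 in alpha-like, 1.70 and 1.36 in delta-like and 0 and 0.093 in beta-like cells (the 0 allows up to 0.534 CPM), 2.31 (SE 0.26, limma adjusted p = 0.000118) against beta, a value that was 4.31 with 1 CPM added and 1.01 with 20. Sytl2 entered the test only through its alpha-like levels, so that test is not independent of its being high there. Sytl1, a Rab27 effector of blood and gland cells, was higher in beta-like (42.9 and 32.3) than in alpha-like cells (8.03 and 8.72), with a difference of -1.58 (SE 0.21, limma adjusted p = 0.000388) in alpha against beta, a value that was -1.94 with 1 CPM added and -0.96 with 20.

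**Figure D2:**
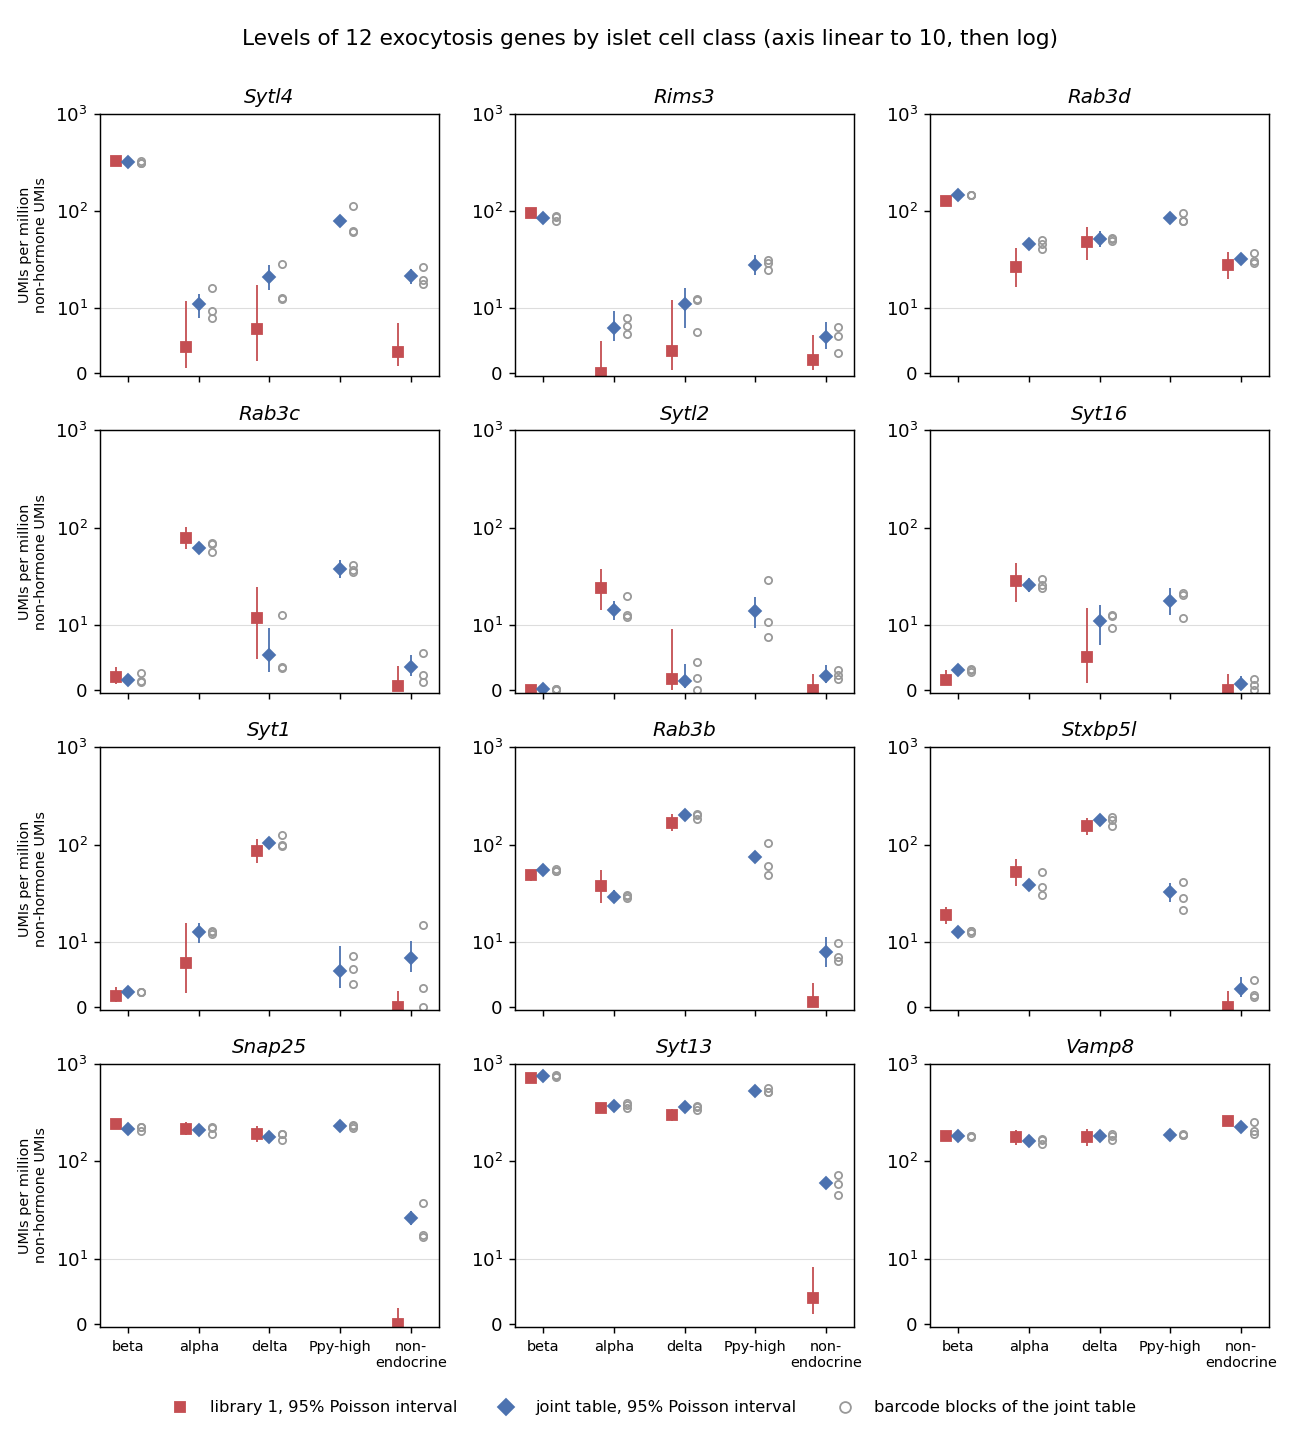
Levels of 12 genes by cell class in CPM of non-hormone UMIs (linear to 10, then log), with red squares for library 1, blue diamonds for the joint table (bars are 95% Poisson intervals) and open circles for its 3 barcode blocks. The first row is highest in beta-like, the second in alpha-like and the third in delta-like cells, while Vamp8 lies between 163 and 188 CPM in all endocrine classes and Snap25 between 178 and 245; the lower Snap25 of delta-like cells turns sign per all UMIs, and the lower Syt13 of alpha-like and delta-like cells is not seen on that scale.

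Insulin RNA gives a measure to set beside the low levels of beta-high genes in other classes. A level equal to the beta level times the insulin ratio of the class would be 1.93 and 15.8 CPM for Sytl4 in alpha-like cells, 5.35 and 25.8 in delta-like and 1.08 and 21.1 in non-endocrine cells. The measured levels were 4.01 and 11.0, 6.79 and 20.9 and 3.32 and 21.3. For Rims3 in the joint table the measured level was 6.97 in alpha-like cells, against 4.19 at the insulin ratio, and 10.9 against 6.85 in delta-like cells. In the Ppy-high cluster the level at the insulin ratio and the measured one were 97.9 and 79.1 for Sytl4 and 26.02 and 28.0 for Rims3. Rab3d (84.9 measured, 45.1 at the insulin ratio) and Syt13 (525 and 233) were above it there. The part of carried-over beta-cell RNA in these levels was not tested.

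**Figure D3:**
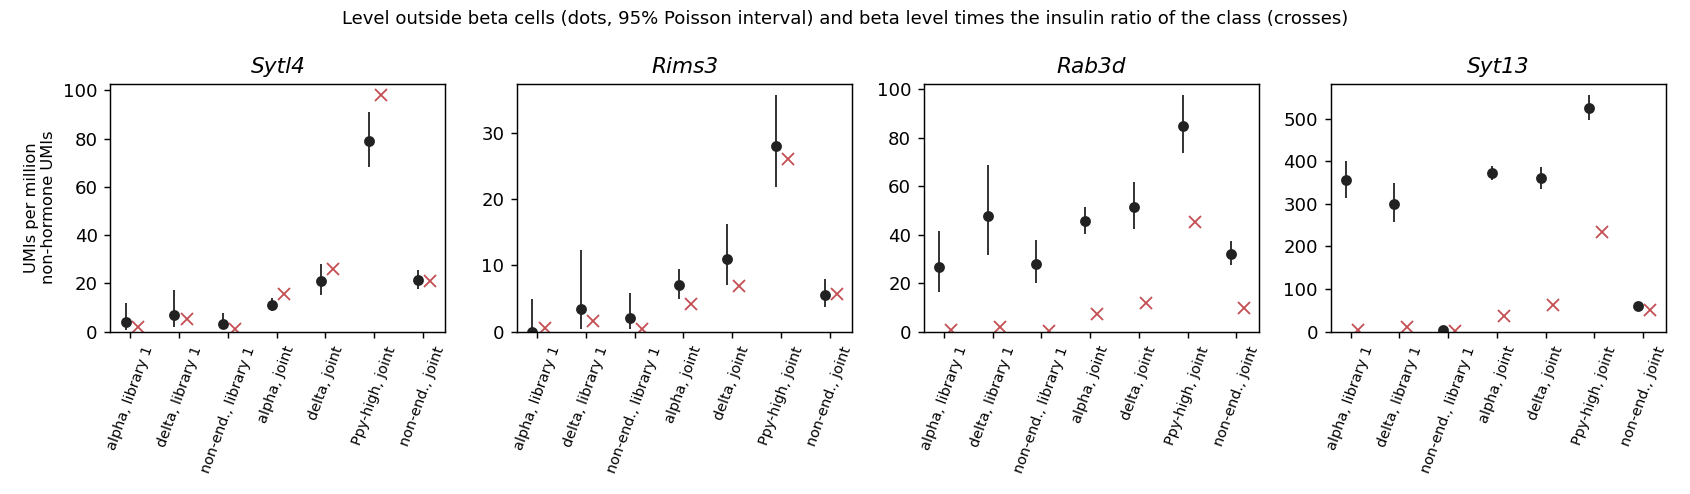
Measured levels outside beta-like cells (dots, with 95% Poisson intervals) beside the beta level times the insulin ratio of each class (crosses), in CPM of non-hormone UMIs. Sytl4 of alpha-like and delta-like cells lies below the crosses in the joint table and Rims3 above them, and Rab3d and Syt13 lie above them in the endocrine classes.

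The Rab3 and Rab27 GTPases, which sit on the granule and recruit these effectors, showed a class-specific Rab3 on a shared base of Rab3a and Rab27a. Rab3b (ENSMUSG00000003411.10, chromosome 4, 108879063 to 108943324) was at 168 and 199.8 CPM in delta-like, 48.2 and 54.4 in beta-like and 37.5 and 29.1 in alpha-like cells. Rab3c (ENSMUSG00000021700.10, chromosome 13, 110054187 to 110280996) was at 79.0 and 62.2 in alpha-like, 11.9 and 5.46 in delta-like and 1.96 and 1.60 in beta-like cells. Rab3d (ENSMUSG00000019066.13, chromosome 9, 21907491 to 21918192) was at 126 and 145 in beta-like, 26.8 and 45.7 in alpha-like and 47.5 and 51.4 in delta-like cells. Each of the 3 was thus highest in a different one of these classes in both libraries, and the Ppy-high cluster held all 3 as well.

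Rab3b rose in delta-like cells by 1.73 (SE 0.16, limma adjusted p = 3.62e-05) against beta-like and 2.21 (SE 0.16, limma adjusted p = 1.22e-05) against alpha-like cells. Rab3c rose in alpha-like cells by 3.55 (SE 0.24, limma adjusted p = 5.35e-06) against beta-like cells (4.77 with 1 CPM added and 2.11 with 20), and its difference between delta-like and alpha-like cells was -2.59 (SE 0.24, limma adjusted p = 5.77e-05). The smaller Rab3c difference between delta-like and beta-like cells, 0.96 (SE 0.24, limma adjusted p = 0.0122), was lost without barcode block 3 (limma adjusted p = 0.0553), and also with no filter, with 20 CPM added (0.38, against 1.71 with 1) and with no library block. Rab3d was lower with a difference of -1.72 (SE 0.17, limma adjusted p = 5.14e-05) in alpha-like and with a difference of -1.38 (SE 0.17, limma adjusted p = 0.000236) in delta-like cells. In shares, Rab3b was 41.1% and 41.3% of the UMIs of Rab3 and Rab27 genes in delta-like and 10.7% and 10.6% in beta-like cells, and Rab3c was 26.5% and 19.6% in alpha-like and 0.435% and 0.311% in beta-like cells. A Rab3c UMI was found in 43.8% and 25.9% of alpha-like cells, 2.52% and 1.06% of beta-like and 0.885% and 0.561% of non-endocrine cells, and after thinning in 14.1% and 8.56%, 0.699% and 0.302% and 0% and 0.225%, with the same limit on the 0. Within the non-endocrine cells of the joint table, Schwann-like cells held Rab3c at 61.1 CPM (18 UMIs).

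Rab3a and Rab27a differed less. Rab3a was at 147 and 166 in beta-like, 79.0 and 79.0 in alpha-like and 86.5 and 103 in delta-like cells, and Rab27a, the granule Rab bound by Sytl4, at 126 and 147, 61.6 and 87.4 and 88.2 and 122. Both were lower than in beta-like cells relative to the median gene (-0.86 and -0.76 in alpha-like cells, limma adjusted p = 0.000449 and 0.00103). Per all UMIs both signs turned, to 0.03 and 0.12 in alpha-like cells, and neither was called there. Rab27b, the second Rab27, was at 14.7 and 14.8 in alpha-like and 0.712 and 0.487 in beta-like cells, a difference of 1.90 (SE 0.29, limma adjusted p = 0.000821) that was 3.40 with 1 CPM added and 0.81 with 20. Rab27b, too, entered the test only through its alpha-like levels. It was not confined to endocrine cells: fibroblast-like cells were at 11.2 and 75.1, and 1 cell held 28.3% of the non-endocrine UMIs in the joint table.

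The promoters of Rab3b, Rab3c, Rab3d and Sytl4 are shown because these 4 genes are isoforms that differed between the classes within their families. The windows, from RefSeq on GRCm38.p6, run from 250 bases before to 50 bases after the annotated start, and 57 of the 75 genes have one in that table. They lie at chrX:133981763-133982062, minus strand (Sytl4), chr9:21918134-21918433, minus strand (Rab3d), chr13:110280157-110280456, minus strand (Rab3c) and chr4:108878820-108879119, plus strand (Rab3b). The Rab3c window ends at 110280456, while the gene coordinates given above for this minus-strand gene run to 110280996. Positions in that window are thus relative to another annotated start. Capitals mark matches to 10 motifs searched on both strands.
Sytl4: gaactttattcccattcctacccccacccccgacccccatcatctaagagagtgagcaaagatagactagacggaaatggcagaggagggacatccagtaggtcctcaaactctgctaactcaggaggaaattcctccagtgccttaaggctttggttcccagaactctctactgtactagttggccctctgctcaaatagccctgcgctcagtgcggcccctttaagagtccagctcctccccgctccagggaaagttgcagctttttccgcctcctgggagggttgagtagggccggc
Rab3d: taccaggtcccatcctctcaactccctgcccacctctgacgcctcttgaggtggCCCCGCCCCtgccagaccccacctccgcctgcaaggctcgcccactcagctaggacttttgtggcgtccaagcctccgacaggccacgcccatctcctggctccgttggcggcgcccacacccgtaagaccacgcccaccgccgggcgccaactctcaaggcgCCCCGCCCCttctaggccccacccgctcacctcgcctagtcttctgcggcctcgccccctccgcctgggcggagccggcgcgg
Rab3c: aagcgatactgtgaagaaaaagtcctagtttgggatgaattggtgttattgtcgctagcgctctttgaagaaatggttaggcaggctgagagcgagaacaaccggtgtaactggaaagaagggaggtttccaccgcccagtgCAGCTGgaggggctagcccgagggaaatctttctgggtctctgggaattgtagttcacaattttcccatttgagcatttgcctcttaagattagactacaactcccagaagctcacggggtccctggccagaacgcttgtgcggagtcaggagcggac
Rab3b: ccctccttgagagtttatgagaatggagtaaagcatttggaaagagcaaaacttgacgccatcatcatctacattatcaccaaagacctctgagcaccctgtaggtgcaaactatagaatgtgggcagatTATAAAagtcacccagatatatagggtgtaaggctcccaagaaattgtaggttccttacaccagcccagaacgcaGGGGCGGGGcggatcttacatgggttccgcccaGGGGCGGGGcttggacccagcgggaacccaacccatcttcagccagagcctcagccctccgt
The motifs were TATAAA (the box bound by TBP), TGACGTCA (cAMP response element), TAATTA (homeodomain core), TGCTGAC (MAF half-site core), TGTTTAC (forkhead core), CAGATG (an E-box of NeuroD type), CAGCTG (another E-box), GTTGCC (RFX half-site), GGGGCGGGG (GC box) and the NRF1 site. The Rab3d and Rab3b windows each held 2 GC boxes, at -196 and -33 in Rab3d (on the other strand) and at -45 and -12 in Rab3b, and 11.4% of all 32851 RefSeq promoters hold at least 1. Rab3b also held the TBP box at -120, and 13.6% of promoters hold that motif at any position. Rab3c held CAGCTG at -108, found in 16.3% of promoters, and Sytl4 held none of the 10. These matches describe letters in the windows, and no binding was measured.

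Of the RIM scaffolds, Rims3 separated beta-like cells from both other classes. Rims3 (ENSMUSG00000032890.17, chromosome 4, 120854816 to 120896579), a short RIM without the Rab3-binding domain, was at 95.7 and 83.9 CPM in beta-like and 3.39 and 10.9 in delta-like cells. In alpha-like cells it had 0 UMIs in library 1, where a count of 0 allows up to 4.01 CPM, and 6.97 in the joint table. The differences against beta were -3.53 (SE 0.31, limma adjusted p = 2.74e-05) in alpha-like cells, where they were -4.91 with 1 CPM added and -2.18 with 20, and -3.04 (SE 0.31, limma adjusted p = 7.48e-05) in delta-like cells. Rims2, the long RIM of islet cells, was at 108 and 88.2 in alpha-like, 84.8 and 74.2 in delta-like and 58.9 and 63.6 in beta-like cells, and rose in alpha-like against beta-like cells by 0.72 (SE 0.14, limma adjusted p = 0.00385), while its difference of 0.34 between delta-like and beta-like cells was not called (limma adjusted p = 0.101). Rims3 was 61.8% and 56.7% of RIM UMIs in beta-like cells, and Rims2 was every RIM UMI of library 1 and 92.0% of those in the joint table in alpha-like and 92.6% and 85.3% in delta-like cells.

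Neither Munc13 isoform tested was called in an endocrine contrast. Unc13a was at 24.5 and 26.1 in beta-like and 30.8 and 20.9 in alpha-like cells and Unc13b at 34.0 and 34.6 and 21.4 and 24.2. Cplx2 was the complexin of all endocrine classes, with 98.8% and 99.3% of complexin UMIs in beta-like cells. Its level was 174 and 239 in beta-like, 211 and 313 in alpha-like and 297 and 354 in delta-like cells and 311 in the Ppy-high cluster. It was higher than in beta-like cells by 0.41 (SE 0.12, limma adjusted p = 0.0245) in alpha-like and by 0.64 (SE 0.12, limma adjusted p = 0.00245) in delta-like cells.

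**Figure D4:**
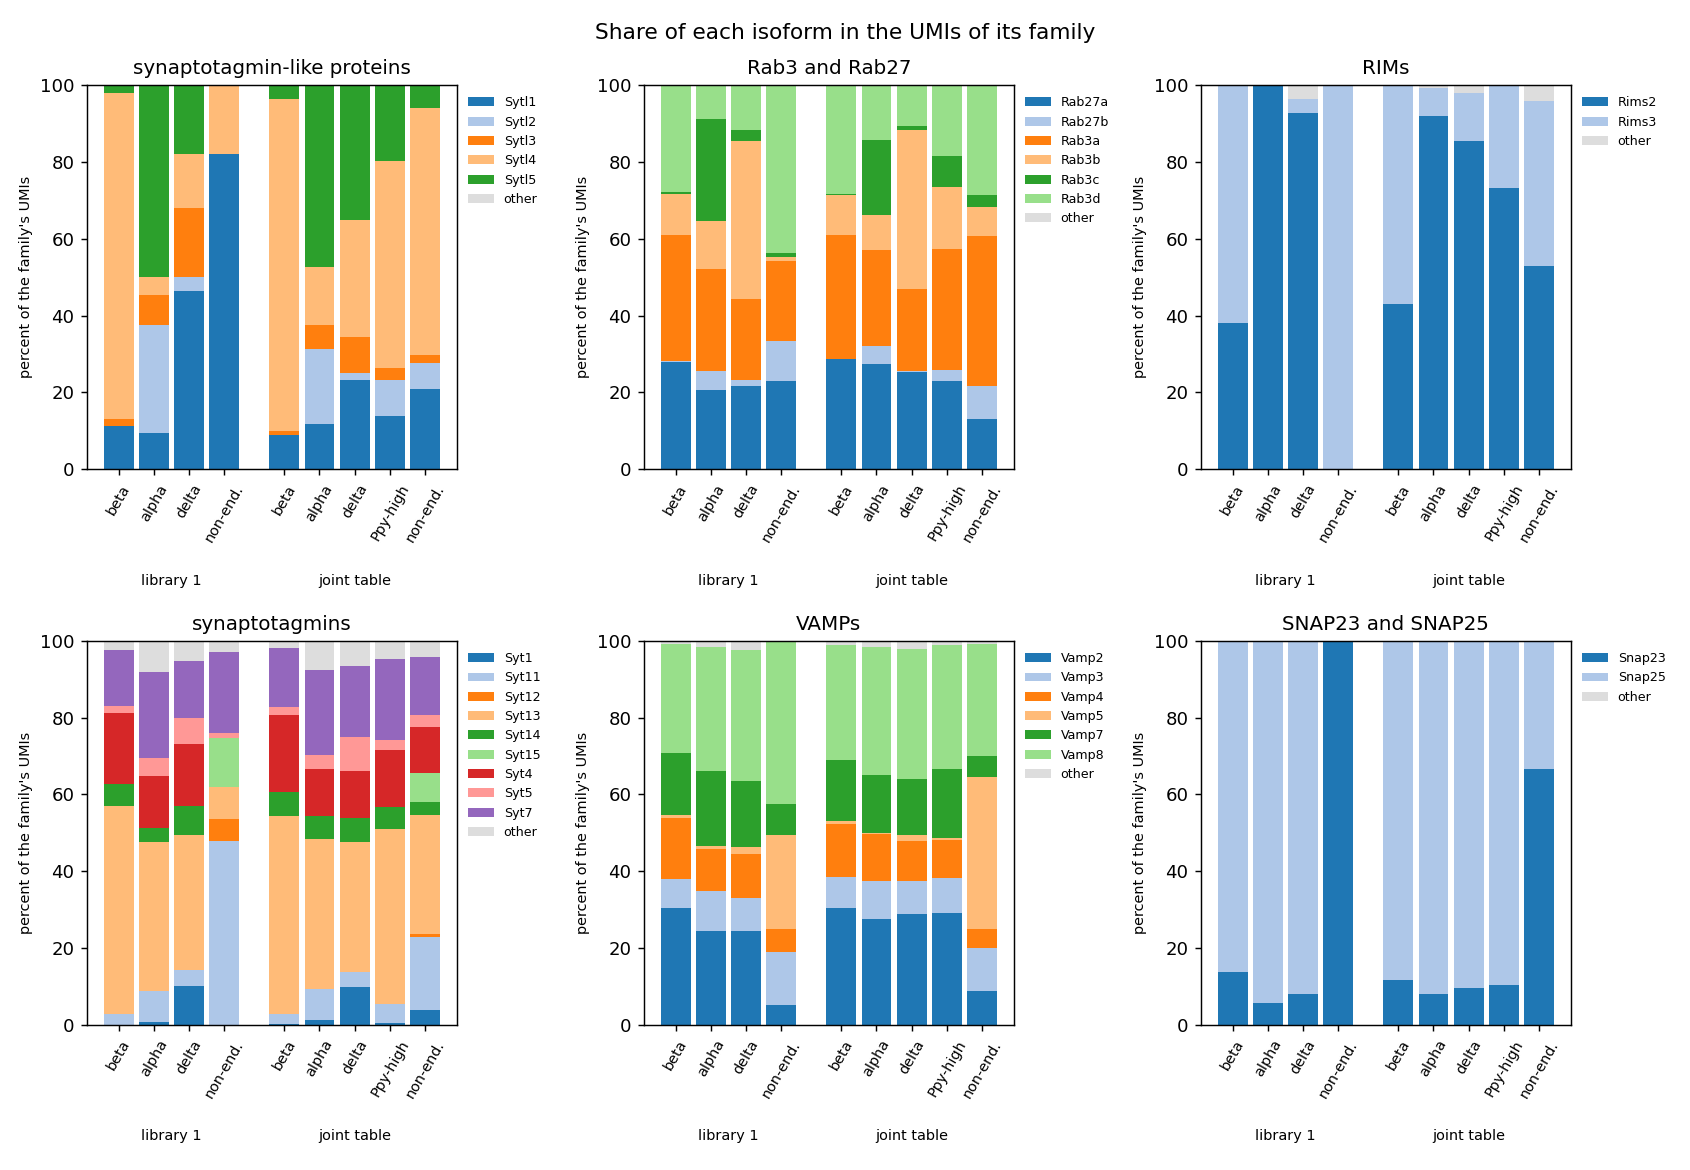
Share of each isoform in the UMIs of its family, in percent, for 6 families by cell class, with library 1 to the left and the joint table to the right in each panel; isoforms under 5% in every bar are pooled as other. Sytl4 fills most of the synaptotagmin-like bar in beta-like cells, Rab3b is largest in delta-like cells, and Snap25 fills most of its bar in the endocrine classes.

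The Ppy-high cluster, present in the joint table and so without a test, held several genes that were high in alpha-like cells. Rab3c was at 38.1 CPM there and 62.2 in alpha-like cells, Syt16 at 17.6 and 25.98, Sytl2 at 13.8 and 14.1, and Sytl5 at 29.3 and 34.7. Rab3b, at 74.9, lay between the delta-like (199.8) and alpha-like levels (29.1). In the 181 joint-table cells that passed the limit for Ppy alone, whose insulin ratio was 4.22%, Rab3c was at 57.2, Rab3b at 80.3, Sytl2 at 20.9 and Sytl4 at 20.9, where the insulin ratio gives 13.3. In these cells Rab27b was at 28.6, against 14.8 in alpha-like cells, Syt11 at 70.4 against 75.7 and Stx16 at 83.6 against 94.2. Syt16 was lower there, at 12.1. The 13 such cells of library 1 held Syt16 at 46.6 (7 UMIs), Rab27b at 33.3 (5 UMIs) and Syt11 at 59.9 (9 UMIs). They held Rab3c at 26.6 (4 UMIs) and Sytl2 at 6.66 (1 UMI).

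Against non-endocrine cells, the mean of the 3 endocrine classes was higher in 37 and lower in 6 of 55 genes tested, where 61.2% of all 11092 genes were called (35.5% higher and 25.6% lower). The 6 that were lower were Vamp5, Stx2, Snap23, Vamp3, Stx4a and Vamp8. Vamp5 and Stx2 entered this test only with the non-endocrine columns counted, so their tests are not independent of their being high there. Vamp5, a VAMP known from muscle and endothelium, was at 153 and 302 CPM in non-endocrine and 3.91 and 4.73 in beta-like cells (difference -4.55, SE 0.26, limma adjusted p = 4.31e-05), and at 486 and 603 in endothelial-like cells. Vamp8 was at 329 and 373 in macrophage or myeloid-like cells. Syt15 was at 31.7 and 31.4 in endothelial-like cells and at most 0.023 in any endocrine class tested.

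Snap25 had the third largest absolute difference, 4.03 (SE 0.53, limma adjusted p = 0.000673), with 0 UMIs among non-endocrine cells of library 1 (up to 1.99 CPM allowed) and 26.5 CPM in those of the joint table. Of the latter, Schwann-like cells, which library 1 did not hold as a cluster, were at 258 and endothelial-like cells at 11.6. Of the 76 Snap25 UMIs in 83 Schwann-like cells, 28 came from 1 cell, without which the level was 175, a value computed after the data were seen. The same cell held 68.3% of the 41 Syt1 UMIs of non-endocrine cells in the joint table. Schwann-like cells also held the highest Syt11, at 346 (306 without that cell), and Syt11 was 0.59 (SE 0.14, limma adjusted p = 0.0102) higher in endocrine cells, a sign that turned to -0.07 per all UMIs. Syt13 differed by 4.16 (SE 0.52, limma adjusted p = 0.000534), from 5.48 in library 1 to 2.84 in the joint table. Its level in non-endocrine cells was 3.98 and 59.9, beside 2.40 and 50.1 at the insulin ratio.

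Among beta-like clusters, 4 in library 1 and 7 in the joint table, every cluster lay above the alpha-like, delta-like and Ppy-high levels of both tables in Sytl4, Syt13 and Rims3. Sytl4 ran from 300.2 to 342 CPM over the clusters of library 1 and from 273 to 374 in the joint table, and Syt13 from 700.0 to 774 and 650.1 to 776. Syt4 had the wider range in the joint table, 259 to 389.7, with its highest value in the cluster led by Npy and Mt3, which was also the highest in Sytl4. Rims3 ran from 80.5 to 107 and 68.8 to 99.4.

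The wider secretion pathway was read from 4 lists of 67 genes, whose counts stand beside 31.1% and 32.2% of all genes called. Of 21 priming, docking and tethering partners tested, 1 was higher and 8 were lower in alpha-like than in beta-like cells, and 1 and 8 in delta-like cells. Pclo (piccolo, an active-zone scaffold) differed with a difference of -2.88 (SE 0.17, limma adjusted p = 2.98e-06) and Exph5, a Rab27 effector, with a difference of -2.07 (SE 0.22, limma adjusted p = 9.1e-05) in alpha against beta. Cadps, which primes dense-core granules, differed with a difference of -2.45 (SE 0.13, limma adjusted p = 1.37e-06) and Ppfia2, a liprin scaffold, by 2.54 (SE 0.23, limma adjusted p = 3.13e-05) in delta against beta. Mlph, a further Rab27 effector, was lower in both contrasts, with a difference of -1.85 (SE 0.26, limma adjusted p = 0.000451) and -1.73 (SE 0.26, limma adjusted p = 0.000769).

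Of 14 vesicle membrane and coat-associated proteins, 2 were higher and 6 lower in alpha-like than in beta-like cells, and 0 and 6 in delta-like cells. Sv2b, a vesicle glycoprotein, was higher in alpha-like cells by 2.08 (SE 0.23, limma adjusted p = 0.000106), and Synpr (synaptoporin) was lower in delta-like cells with a difference of -2.29 (SE 0.25, limma adjusted p = 0.000101). Of 12 other SNAREs of the Golgi, endoplasmic reticulum and endosomes, 2 were higher and 2 lower in alpha-like cells and 2 and 3 in delta-like cells, with Gosr2, a Golgi SNARE, at -1.13 (SE 0.15, limma adjusted p = 0.000369) and -1.23 (SE 0.15, limma adjusted p = 0.000232). Of 9 exocyst subunits, 3 were higher and 2 lower in alpha-like and 1 and 2 in delta-like cells, and Exoc6 was higher in both, by 0.99 (SE 0.24, limma adjusted p = 0.0112) and 1.66 (SE 0.24, limma adjusted p = 0.000656), while Exoc7 was lower in both, at -0.87 (SE 0.14, limma adjusted p = 0.0012) and -0.75 (SE 0.14, limma adjusted p = 0.00301). Between delta-like and alpha-like cells, where 19.4% of all genes were called, 4 of the 21 priming, docking and tethering partners were higher and 2 lower, and 2 and 3 of the 14 vesicle proteins. None of the 12 SNAREs and none of the 9 exocyst subunits was called by limma there, while Erc2, an active-zone scaffold, was higher in delta-like cells by 2.36 (SE 0.25, limma adjusted p = 0.000144). Cadps was lower in delta-like than in alpha-like cells, at -2.61 (SE 0.13, limma adjusted p = 1.67e-06), and so was Sv2b, at -2.93 (SE 0.23, limma adjusted p = 2.12e-05).

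Against non-endocrine cells, 15 of 23 priming, docking and tethering partners were higher and 2 lower in the endocrine classes, led by Rimbp2, a RIM-binding protein, at 3.78 (SE 0.30, limma adjusted p = 9.44e-05). Of 15 vesicle membrane and coat-associated proteins 10 were higher and 4 lower, with Syp (synaptophysin) at 3.30 (SE 0.28, limma adjusted p = 0.000116) and Syn3 (synapsin 3) at -2.39 (SE 0.32, limma adjusted p = 0.000728). Of the 12 other SNAREs 5 were higher and 0 lower, and of the 9 exocyst subunits 2 and 0. Over all genes 35.5% were higher and 25.6% lower in this contrast.

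Among the 22 genes below 10 CPM in at least 1 table were Cplx1, Cplx3, Cplx4, Rims1, Rims4, Stx11, Stx19, Stx2, Syt10, Syt12, Syt15, Syt17, Syt2, Syt3, Syt6, Syt8, Sytl3, Unc13c, Unc13d, Vamp5 and Vamp9. Among them are all RIM, Munc13 and complexin isoforms other than Rims2, Rims3, Unc13a, Unc13b and Cplx2. Their levels in the endocrine classes tested were at most 13.6 CPM in either table.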

How the data were processed

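The authors deposited raw UMI counts for replicate 1 and, for replicates 2 and 3, natural log values of 1 plus the UMI count scaled to 10000 per cell, a form read from the values. The submitters' processing notes name Cell Ranger (3.2.0 for replicate 1, 5.0.0 for the others), cutadapt 2.5, FastQC 0.11.8, Seurat (4.0.0 for replicates 2 and 3) and the mm10 build. Whole UMIs were recovered from the log values (100% of 35558086 nonzero values within a tolerance of 0.001), and 3008 repeated columns of 16050 were dropped, leaving 13042 cells with 196833349 UMIs beside 1146 cells with 27474046 in library 1.

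Cells had at least 500 genes, 1000 UMIs and at most 20% mitochondrial UMIs, and the highest Scrublet scores were removed at 0.8% per 1000 cells in place of the automatic threshold. Clusters (scanpy 1.11.5, 2000 variable genes without the members and partner lists, 30 components, 15 neighbours, Leiden resolution 1) were named from hormone medians and markers by a rule set after clusters were seen. Clusters with the hormones or markers of more than 1 class (110 and 1163 cells) and 1 of 31 insulin-high cells with no beta marker among its top 10 genes were left out. UMIs were summed per class and library and tested with limma 3.58.1 (trend, library as block, genes at 10 CPM in 2 columns) on log2 values. Classes are paired by library because they come from the same mice. Alternatives used edgeR 4.0.16, DESeq2 1.42.0 and other settings. Full statistics are given for members past adjusted p 0.05, at most the 12 largest per contrast, and where a family needs them. Partners named are among the 3 per list and contrast with the largest called differences, and not all of those are named. Coordinates are from GENCODE on GRCm38. The members and lists were chosen with earlier results of these data known. Members that are not reported here by name stay in the counts. The scripts were tested on simulated data.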

Additional observations from a re-analysis of the deposited data

How the results depend on the processing

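Counts of called members kept within 1.5 times under most settings: 23 to 37 in alpha against beta, and 37 to 51 in endocrine against non-endocrine. Of all genes tested, from 16.2% to 79.5% and from 52.3% to 67.7% were called there. Exceptions in delta against beta were 41 of 49 per all UMIs (39 higher and 2 lower) and 17 of 53 with no replicate block. In delta against alpha they were 11 of 68 without the filter and 10 of 53 with no replicate block. Of all genes, 89.3%, 21.1%, 9.56% and 11.1% were called in these settings, in that order. Per all UMIs the split was 33 higher and 4 lower in alpha against beta, 12 and 6 in delta against alpha and 25 and 12 in endocrine against non-endocrine. Of all genes, 79.5%, 31.5% and 67.7% were called on that scale. Pairing by library entered the main fit, and without that replicate block alpha against beta gave 23 and endocrine against non-endocrine 42, beside 20.6% and 56.7% of all genes. Of the differences among the 12 largest called per contrast, under all alternatives, 802 were counted as kept. They include 47 values without replicate 1 and 47 without replicates 2 and 3. These have no test, and by the rule used their size could not count as moved. The others among the 802 kept direction and call. A further 13 lost the call (Rab3c and Rab3d in delta against beta, Sytl5 and Rab27b in delta against alpha). The last 2 changed sign in delta against beta per all UMIs without being called there: Syt13 (0.00617) and Syt4 (0.157). That scale counts hormone RNA in the total, and over all called members it changed the sign of 7 in alpha against beta, 15 in delta against beta, 0 in delta against alpha and 1 in endocrine against non-endocrine. Not all of these were called in the new direction. Leaving out either library gives values with no test, and classes from hormone RNA alone could not be fitted, since fewer than 10 delta-like cells of library 1 passed. Chosen after seeing the data were classes that ignore Ppy (30, 31, 13 and 46 calls in that order) and endothelial-like cells as the only non-endocrine class (45). Of all genes, 32.6%, 35.1%, 19.2% and 63.7% were called with the first choice and 65% with the second. At resolution 0.5 only delta against beta could be fitted (31, beside 38.6% of all genes). A larger pseudocount shrinks the differences of low genes. With n = 2 libraries, small differences are not resolved.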
